A study of Mus musculus with 15 samples.

Results

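Inhib_2 is a cluster of GABAergic neurons of the mouse prefrontal cortex (PFC) that is marked by Sst, Lypd6 and Reln. Its members are the cells that the deposited cell annotation assigns to Inhib_2, and they number 453 of the 2153 cells in the 12 inhibitory clusters and of 35360 retained cells in all. Of these, 112 came from adult (P60) libraries and 341 from young (P21) libraries. Single cells of dissociated PFC from male C57BL/6N mice were captured in 15 droplet libraries, and each sequenced molecule was counted once by its unique molecular identifier (UMI). Each library pooled 2 mice by its label, although the study's methods give fewer P21 mice than 3 such pools need, so that P21 libraries may share an animal. Adult mice of 8 to 10 weeks self-administered cocaine or saline intravenously and were sampled during maintenance, 48 h after the last session or 15 d after it, with 2 libraries for each drug and time. The 3 P21 libraries came from mice of 3 weeks that had no self-administration. The labels give no genetic alteration for any group. Age cannot be told apart from the surgery and training that only the adults had, nor from the separate preparation of the young libraries. A tissue field of the labels names the nucleus accumbens while titles and source names give the PFC, and the cells are treated here as PFC cells.

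Somatostatin (Sst) interneurons arise in the medial ganglionic eminence of the embryo and release GABA, mostly onto the distal dendrites of pyramidal neurons. They also store neuropeptides in dense-core vesicles, and somatostatin itself acts on inhibitory G protein-coupled receptors. Transcription of the Sst gene is a classic case of control through a cAMP response element, the palindrome TGACGTCA bound by CREB. Cartpt encodes the precursor of the CART peptide, whose levels in reward circuits are known to respond to psychostimulants. Within the cortex, Sst neurons form several subtypes that differ in axon shape and in the peptides they carry.

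The 250 bases before the start of the Sst and Cartpt genes are shown because Sst defines the cluster and Cartpt was the only other of 11 peptide genes matched (of 14 listed) with a full palindrome in this window. Both are read 5′ to 3′ on the gene's strand, the minus strand, from RefSeq on GRCm38.p6, at chr16:23890845-23891094 for Sst and chr13:99900684-99900933 for Cartpt. Capitals mark TGACGTCA, which reads alike on both strands.
Sst: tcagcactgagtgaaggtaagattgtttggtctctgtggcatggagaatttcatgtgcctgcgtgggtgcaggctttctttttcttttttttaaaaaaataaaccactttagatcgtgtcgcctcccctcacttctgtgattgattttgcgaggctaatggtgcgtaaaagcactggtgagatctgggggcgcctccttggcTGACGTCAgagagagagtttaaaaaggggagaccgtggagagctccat
Cartpt: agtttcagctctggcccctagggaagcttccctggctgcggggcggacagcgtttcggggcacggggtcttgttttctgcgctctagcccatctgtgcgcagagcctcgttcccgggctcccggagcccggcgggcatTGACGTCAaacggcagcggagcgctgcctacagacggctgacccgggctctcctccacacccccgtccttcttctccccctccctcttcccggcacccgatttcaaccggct
The palindrome begins 48 bases before the Sst start and 112 bases before the Cartpt start, and 1.55% of 32851 promoter windows of this length hold it. A match describes the letters in the window and not binding.

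The libraries held 8375172 to 42892922 UMIs in retained cells. Inhib_2 cells had a median of 9299.5 UMIs and 3280 genes at P60 and of 7349 UMIs and 2832 genes at P21, and mitochondrial genes took a median of 2.22% and 3.27% of their UMIs. The cluster was thin in most adult libraries: 6 of them had 10 to 27 Inhib_2 cells and the other 6 had 0 to 7, against 97 to 141 cells in each P21 library. Tests across genes therefore used the summed UMIs of the 9 libraries with at least 10 Inhib_2 cells, which are 3 saline, 3 cocaine and 3 P21 libraries, while the 18 cells of the small libraries count only in the shares of cells, in levels given over all P60 cells and in some alternatives. No cell barcode was shared between Inhib_2 cells of different libraries, and at most 27 barcodes were shared between any pair of libraries over all cells. Levels are given as CPM, a gene's UMIs relative to the UMIs of its sample or cluster scaled to a common total. Mitochondrial and ribosomal protein genes are left out of these UMIs. Limits and intervals on counts cover counting error only.

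Sst, the precursor of somatostatin, was at 22946 CPM in Inhib_2 cells at P60 and at 24291 CPM at P21 (chr16:23889667-23890930, minus strand, NCBIM37). Every one of the 112 P60 cells and 95.9% of P21 cells had an Sst UMI, against 3.34% and 9.92% of endothelial cells, which should lack the gene and had a median of 4516 and 4035.5 UMIs. Lypd6, a GPI-anchored modulator of nicotinic receptors (chr2:49921982-50049084), was at 418 CPM at P60 and 399 CPM at P21. It was found in 85.7% and 79.5% of cells, against 0.309% and 1.03% of endothelial cells, and in 51.7% and 47.2% of Inhib_2 cells after each cell was thinned to 2000 UMIs. In Inhib_1, Lypd6 was at 117 CPM at P60 and 150 CPM at P21 and was found in 61.1% and 53.1% of cells. Reln, the secreted glycoprotein reelin (chr5:21390272-21850523), was at 346 and 325 CPM and was higher in Inhib_5, with 526 and 792 CPM, and at P21 also in Inhib_10, with 482 CPM. Of the 3 markers, Lypd6 was thus the one highest in Inhib_2 at both ages, while Inhib_1 had more Sst at P60 (40381 CPM) and about as much at P21 (23392 CPM). The other 10 inhibitory clusters had at most 571 CPM of Sst at P60, and at P21 Inhib_3 had 5772 CPM of Sst and 164 CPM of Lypd6.

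**Figure D1:**
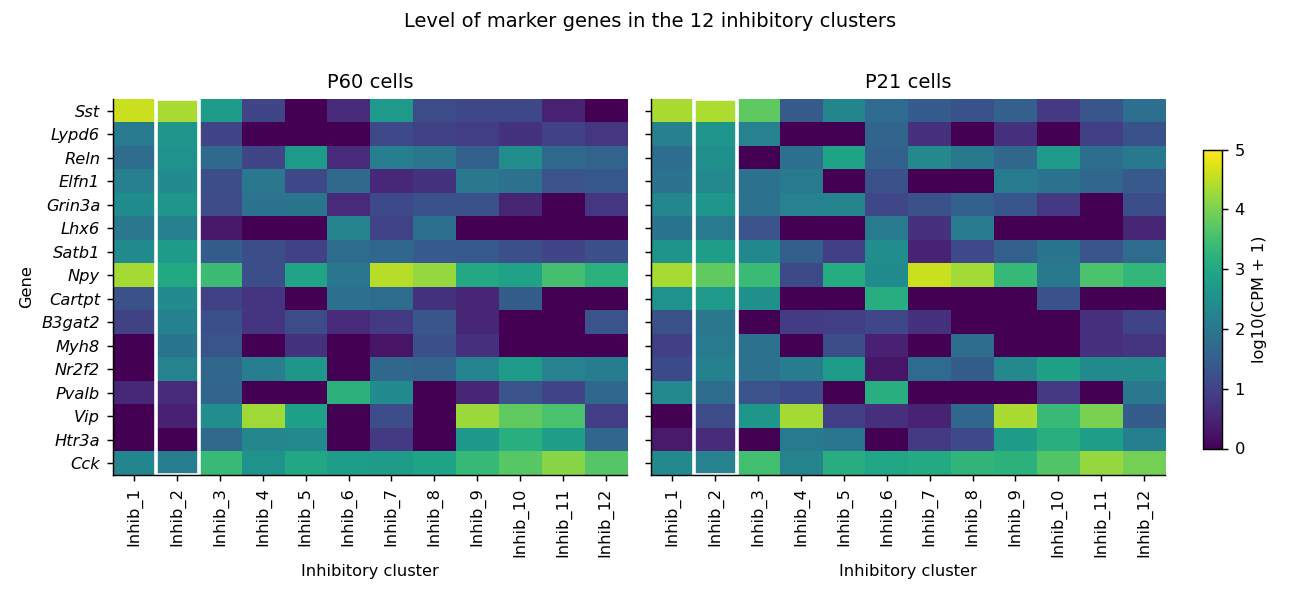
Heatmap of log10(CPM + 1) for 16 marker genes (rows) in the 12 inhibitory clusters (columns) at P60 and at P21, with Inhib_2 boxed. Sst is high in Inhib_1 and Inhib_2 alone at P60, and Lypd6 is highest in Inhib_2 at both ages.

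Other genes of the Sst class were present with these markers, and Vip, Pvalb and Htr3a were at or near 0 at P60. Elfn1, a synaptic protein of Sst cells that shapes their excitatory input, was at 252 CPM at P60 against a mean of 49.7 CPM over the other 11 clusters, and the NMDA receptor subunit gene Grin3a was at 445 against 45.5 CPM. The chromatin organiser Satb1, needed for the maturation of Sst neurons, was at 582 against 46.4 CPM. Lhx6, the transcription factor of the medial ganglionic eminence, was at 153 against 31.3 CPM, with 168 CPM in Inhib_6. Of the 13 Sst class genes listed, 12 had at least 10 UMIs in Inhib_2 at P60, and 9 of these were at least 2-fold above the mean of the other clusters, with a median ratio of 4.61 beside 1.02 over all genes. Npy, also on this list, was well below that mean, at 1107 CPM with 21282 CPM in Inhib_1 and 29596 CPM in Inhib_7. Tac1, listed for both the Sst and the Pvalb class, had 0 UMIs at P60. Vip was at 1.92 CPM, Pvalb at 2.88 CPM and Htr3a at 0 CPM at P60. At P21 Vip was at 13.3 CPM and Pvalb at 60.6 CPM, with a Pvalb UMI in 9.97% of cells against 0.831% of endothelial cells. Adarb2 and Prox1, genes of interneurons from the caudal ganglionic eminence, were also at 0 CPM at P60. Other genes of those lists were present: Calb2 was at 305 CPM (mean of the other clusters 488 CPM), Kcnc1 at 126 CPM (190 CPM) and Nr2f2 at 174 CPM (156 CPM). The 5 Vip class markers summed to 476 CPM, against 7926 CPM in the mean of the other clusters. The measured markers match the label in adult cells. GABA synthesis genes were present, yet Gad1 at 513 CPM was the lowest of the 12 clusters (918 to 2297 CPM in the others), as it was at P21 with 557 CPM (792 to 2140 CPM). The vesicular GABA transporter gene Slc32a1 was at 386 CPM, close to the mean of 387 CPM in the other clusters. These cluster levels were not tested, since the cells were grouped by their expression.

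The 15 genes with the highest P60 level relative to the other clusters, among 3607 genes with at least 50 UMIs, included peptide, receptor and surface protein genes. Folds are against the mean of the other 11 clusters, Inhib_1 included, and for the 10 genes that were next highest in Inhib_1 they are smaller against that cluster alone. Lypd6 led at 26.7-fold, followed by Myh8 (22.5-fold), a myosin heavy chain gene that marks an Sst subtype, and Pdyn (20.7-fold), the prodynorphin gene. B3gat2, which makes the HNK-1 carbohydrate on neural proteins, was 18.4-fold higher, and Lypd6b, the close relative of Lypd6, was 16.5-fold higher. Cartpt followed at 14.7-fold, Spon1 at 13.5-fold, Satb1 and Mgat4c at 12.5-fold, and Trhde, which degrades thyrotropin-releasing hormone, at 11.1-fold. The last were Baiap3 (10.7-fold), Gpx3 (10.6-fold), the retinol carrier Rbp4 (10.1-fold), Grin3a (9.78-fold) and the kainate receptor gene Grik3 (9.05-fold). Of these 15, 10 were also among the 15 leading genes at P21. Cartpt was not: at P21 it was at 479 CPM in Inhib_2, 1278 CPM in Inhib_6, 360 CPM in Inhib_1 and 329 CPM in Inhib_3. Of the 16 glutamate receptor genes listed, 5 were at least 2-fold above the other clusters at P60 (median ratio 1.46), beside 384 of 8439 genes with at least 10 UMIs (median ratio 1.02). Chrna2, the nicotinic alpha2 subunit known from dendrite-targeting Sst cells, was found in 16 P60 cells (24 UMIs) and 22 P21 cells (29 UMIs) of Inhib_2, and had 0 UMIs in all other inhibitory clusters at both ages.

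Inhib_1 was the only other cluster rich in Sst at P60. It was also the next highest cluster for 10 of the 15 leading genes, among them Rbp4 (770 CPM in Inhib_2 and 423 CPM in Inhib_1), Grin3a (445 and 264 CPM), Satb1 (582 and 261 CPM) and Pdyn (183 and 91.8 CPM at P60, 62.6 and 58.9 CPM at P21). Pdyn UMIs were found in 25.9% of Inhib_2 and 30.6% of Inhib_1 cells at P60. Other genes set the 2 clusters apart. Over both ages, Nr2f2, the transcription factor COUP-TFII, was 20.1-fold higher in Inhib_2, Myh8 19.3-fold, the transcription factor gene Npas1 12.2-fold and Igfbp5 10.2-fold. Ppapdc1a was 23.3-fold higher, the myosin gene Myh13 20.5-fold, the sphingosine 1-phosphate receptor gene S1pr3 8.33-fold, B3gat2 8.27-fold and 4930500J02Rik 8.17-fold, all but B3gat2 on at most 3 UMIs in Inhib_1. Tac2, the neurokinin B precursor, was 78.5-fold higher but rested on 1 UMI in Inhib_1 (95% interval 14.0 to 3114). Inhib_1 was higher in Nos1 (8.68-fold) and Chodl (7.73-fold), known markers of long-projecting Sst cells that make nitric oxide, and in Th (6.60-fold) and Npy (4.69-fold). It was also higher in Carhsp1 (6.89-fold), Clic1 (6.24-fold), the growth factor gene Ptn (5.52-fold), Col25a1 (5.31-fold), the cationic amino acid transporter gene Slc7a3 (4.34-fold) and Nxph2 (4.30-fold). The ages differed in these genes: in Inhib_2 and Inhib_1, Nos1 was at 11.5 and 781 CPM at P60 and 113 and 682 CPM at P21. Chodl was at 0 and 161 CPM at P60 and 27.8 and 145 CPM at P21, and Th at 0 and 89.0 CPM at P60 and 10.8 and 30.8 CPM at P21. At P60, Npy was at 1107 CPM in Inhib_2 and 21282 CPM in Inhib_1. No test was made of this split.

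Inhib_2 was not uniform, and several peptide and subtype genes were carried by part of its cells. Calb2, the calretinin gene that marks one Sst subtype, had at least 3 UMIs in 16 of 112 P60 cells and 64 of 341 P21 cells. Few of these also had 3 UMIs of Cartpt (1 of the 16 and 8 of the 64), against 33.3% and 37.9% of the remaining cells. Myh8 cells, in contrast, often carried Nr2f2, in 7 of 13 cells at P60 and 19 of 36 at P21, against 23.2% and 14.8% of the rest. Cells with Cort, the cortistatin gene, mostly had Npy as well (13 of 15 and 85 of 113 cells), against 27.8% and 36.4% of the rest. At P21, 12 cells had 3 UMIs of Nos1 and all 12 had Npy, as did 49.3% of all P21 cells. The Calb2, Cort, Npy and Myh8 cells of P21 had more UMIs in the median than the rest (8250.5 against 7082 for Calb2), while Cartpt cells had fewer (6773 against 7580.5), and depth enters any such count of cells with 3 UMIs. Of the 50 Tac2 UMIs at P60, 39 lay in a single cell.

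A minority of the cells assigned to Inhib_2 had little Sst, and most of them were young. Under 0.5% of the UMIs came from Sst in 4 P60 cells and 50 P21 cells (14.7%), of which 14 P21 cells had no Sst UMI. Summed, these 50 P21 cells had Tac1, the tachykinin precursor that in cortex is typical of Pvalb interneurons, at 2479 CPM and Pvalb at 375 CPM. In the other 291 P21 cells Tac1 was at 71.8 CPM and Pvalb at 12.0 CPM. Lypd6 was at 226 against 425 CPM, Reln at 71.3 against 364 CPM and Npy at 921 against 6944 CPM. The Sst class genes Elfn1 (68.2 against 251 CPM) and Grin3a (164 against 473 CPM) were lower too, as was Lypd6b (62.0 against 198 CPM). Satb1 (552 against 646 CPM) and Lhx6 (112 against 108 CPM) were similar, and Gad1 was higher (865 against 510 CPM). The peptide genes Cartpt (909 against 412 CPM) and Cort (1588 against 821 CPM) were higher in the cells low in Sst. Inhib_1 held a larger share of such cells at P21, 31.6% of its 98 cells, and a Tac1 UMI was found in 43.9% of Inhib_1, 15.2% of Inhib_2 and 1.03% of endothelial cells at P21. Of the 38 P21 cells with at least 3 Tac1 UMIs, 8 reached the Sst level and 10 had 3 UMIs of Pvalb. P21 cells had been named by their likeness to adult clusters, not by their own clustering, and the peptide genes are therefore compared between ages with and without the cells low in Sst.

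**Figure D2:**
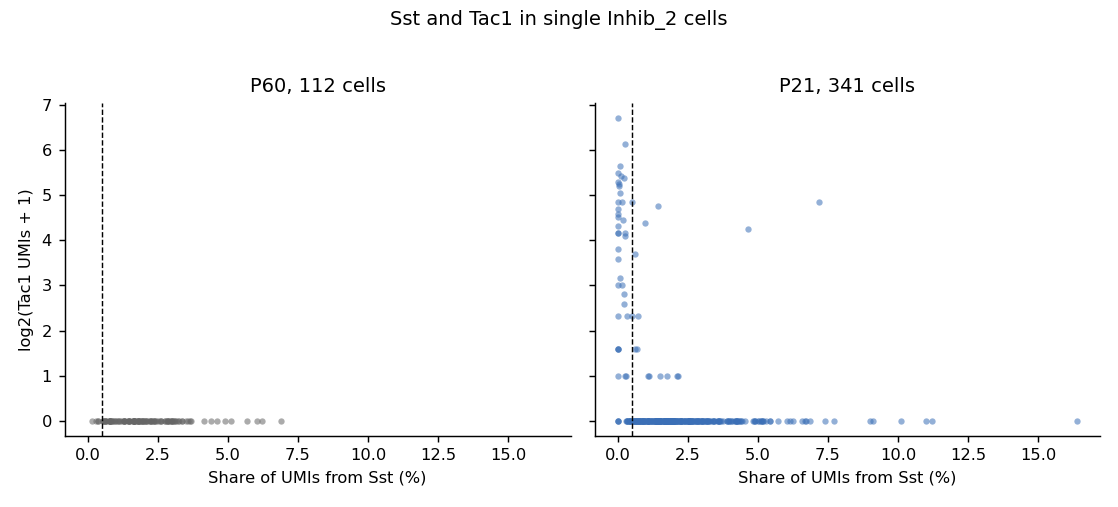
Each point is 1 Inhib_2 cell, with the percentage of its UMIs from Sst on the x axis and log2(Tac1 UMIs + 1) on the y axis, at P60 and P21; the dashed line marks 0.5%. Tac1 is absent from all 112 P60 cells, and most of the 38 P21 cells with at least 3 Tac1 UMIs lie left of the line.

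Inhib_2 made up a larger share of inhibitory cells in the young libraries. It was 35.5%, 32.2% and 38.0% of inhibitory cells in the 3 P21 libraries and between 0% and 13.8% (median 7.71%) in the 6 saline libraries, and the groups did not overlap. The mean share was 35.2% ± 2.90 (SD, n = 3) at P21 and 7.60% ± 4.66 (SD, n = 6) in adult saline mice, a difference of 27.7 percentage points (two-sided exact permutation p = 0.0119, the smallest that 84 regroupings can give). Counting every inhibitory cell with at least 0.5% of its UMIs from Sst in place of the cluster gave a difference of 26.2 points (exact permutation p = 0.0119). This count was not planned in advance and is no independent check. It rests on the cluster's own marker, takes in 291 of the P21 Inhib_2 cells again and also counts Inhib_1 cells. Shares are relative: Inhib_6 (3.69% of P60 and 16.8% of P21 inhibitory cells) and Inhib_1 (3.02% and 10.2%) had larger shares at P21 too, and Inhib_7 (32.9% and 7.90%) and Inhib_3 (11.3% and 1.25%) had smaller ones. Recovery of each cell type during dissociation and the way P21 cells were named cannot be told apart from a true difference in cell numbers.

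The share did not pass a test between cocaine and saline. It was 5.88% to 14.6% (median 10.1%) in the 6 cocaine libraries and overlapped the saline range of 0% to 13.8%. The mean was 9.94% ± 3.65 (SD, n = 6), 2.34 points above saline (exact permutation within time points over 216 regroupings, p = 0.407). The difference was 4.97 points in maintenance, −3.94 points at 48 h and 5.99 points at 15 d, with 2 libraries per group at each time. One saline maintenance library had 0 Inhib_2 cells of 28 inhibitory cells, which allows a share of up to 10.7% by a floor of 3 cells (the exact Clopper-Pearson 95% interval reaches 12.3%).

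**Figure D3:**
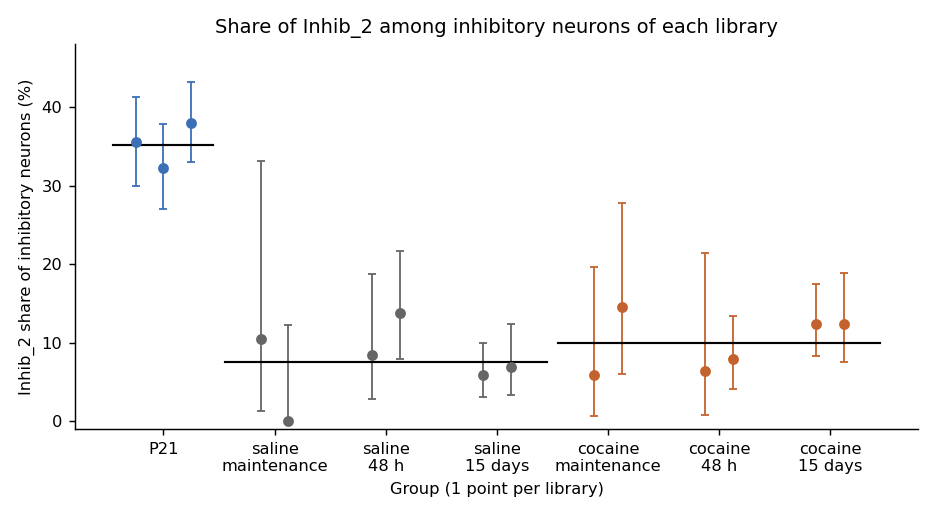
Inhib_2 cells as a percentage of all inhibitory cells in each of the 15 libraries, with exact 95% binomial intervals as bars and black lines at the group means. The P21 libraries lie at 32.2% to 38.0% and the adult libraries at 0% to 14.6%.

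Gene expression in Inhib_2 was compared between P21 and adult saline mice (3 libraries each). Of 5617 genes tested, 50 (0.890%) were called, that is, had a Benjamini-Hochberg adjusted p under 0.05 in edgeR's quasi-likelihood test and changed over 1.5-fold. Of these, 10 (0.178%) were higher and 40 (0.712%) lower in adults, and 751 genes had an unadjusted p under 0.05. All 50 had groups that did not overlap, as did 20.3% of all genes tested. The p-values measure the spread between these libraries only. The 3 cluster markers helped to choose the cells at both ages, so their levels are a description with no test. Sst was at 29340, 24245 and 14645 CPM in the saline libraries (48 h, then both 15 d libraries) and at 26422, 22380 and 23333 CPM in the P21 libraries, a log2 difference of −0.09. Lypd6 differed by 0.20 and Reln by 0.15.

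The neuropeptide genes Tac1 and Npy were among the genes that fell. Tac1 (chr6:7505071-7512973) was at 526, 316 and 301 CPM in the P21 libraries and had 0 UMIs in every adult library, cocaine and small libraries included. It was at least 42.2-fold lower in adult saline mice, counted against a floor of 3 UMIs over the group (adjusted p = 0.000322). Its P21 UMIs lay mainly in the cells low in Sst, and without those cells Tac1 was at 19.1, 80.7 and 122 CPM and too low to be tested. Npy (neuropeptide Y, chr6:49772709-49779506) was at 3807, 8454 and 7010 CPM at P21 and at 1279, 2152 and 939 CPM in the saline libraries. It fell by 2.14 ± 0.34 (log2, SE; adjusted p = 0.0219), and by 2.31 (adjusted p = 0.0103) without the cells low in Sst. Its adjusted p was 0.259 without the saline library of 48 h and 0.0797 without saline library 12. Npy UMIs lay mostly in few cells. The top 35 of 341 P21 cells held 74.7% of them, with up to 983 in 1 cell. At P60 the top 12 of 112 cells held 63.0%, with up to 80 in 1 cell. The part of such Npy-rich cells in the fall was not tested. In the cocaine libraries Npy was at 1080, 1625 and 189 CPM, and the adjusted p was 0.0619 with all 6 adult samples in the comparison.

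Among other peptide genes of the cluster, Cartpt and Cort were lower at P60 without passing the test and Pdyn was not lower. Cartpt was at 286, 135 and 313 CPM in saline and 476, 528 and 443 CPM at P21 (log2 −1.02, adjusted p = 0.0564), and Cort at 264, 633 and 259 CPM against 963, 678 and 1072 CPM (log2 −1.23, adjusted p = 0.0947). Neither gene overlapped between the ages, and both missed the threshold. Without the cells low in Sst the log2 differences were −0.82 for Cartpt (adjusted p = 0.130) and −1.10 for Cort (adjusted p = 0.178), and Cort then overlapped, with 624, 685 and 1147 CPM at P21. Pdyn was at 28.6, 211 and 0 CPM in saline and 52.8, 81.8 and 58.9 CPM at P21 (log2 0.43, adjusted p = 0.869), with overlap. Of the 14 neuropeptide genes listed, 10 were tested, 2 were called lower (Tac1 and Npy; 0.712% of all genes tested were called lower), none was called higher (0.178%), and the median log2 difference was −1.68 beside 0.00797 over all genes. The calcium buffer gene Calb1 (log2 −0.78, adjusted p = 0.109) and Crhbp, the binding protein of corticotropin-releasing hormone (−0.82, adjusted p = 0.172), were not called.

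**Figure D4:**
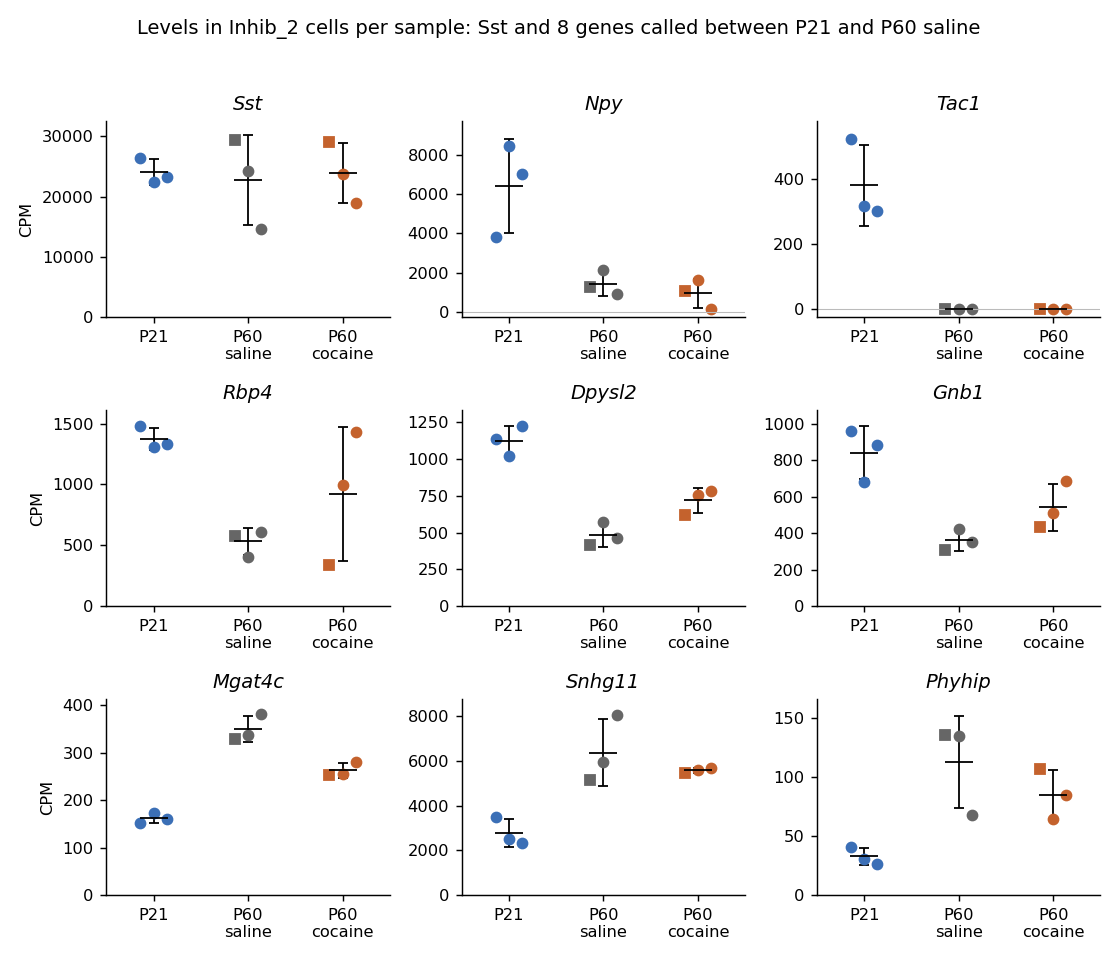
CPM (linear axes) of Sst, Npy, Tac1, Rbp4, Dpysl2, Gnb1, Mgat4c, Snhg11 and Phyhip in the Inhib_2 cells of each tested library, grouped as P21, P60 saline and P60 cocaine; squares are libraries of 48 h, circles are libraries of 15 d or P21, and bars give the mean and SD of 3 libraries. Npy and Rbp4 lie lower, and Mgat4c and Snhg11 higher, in all saline libraries than in all P21 libraries.

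Of the other genes called with age, more were lower than higher in adults, although the balance changed to 15 higher and 12 lower without saline library 7. Rbp4 (chr19:38191110-38199811), one of the cluster's leading genes, was at 1476, 1311 and 1333 CPM at P21 and 579, 405 and 612 CPM in saline, and fell by 1.39 ± 0.19 (log2, SE; adjusted p = 0.00376). It was at 341, 998 and 1434 CPM in the cocaine libraries, and with all 6 adult samples its difference was −0.89 (adjusted p = 0.251). Of the 46 calls that could be tested with all adult samples, 17 were called again, Dpysl2, Gnb1 and Brp44 among them and Cadm1, Slc25a3 and Ndufab1 not. Dpysl2, the tubulin-binding protein CRMP2 of growing axons, was at 1134, 1017 and 1220 CPM at P21 and 414, 574 and 463 CPM in saline, and fell by 1.23 (adjusted p = 0.00598). Gnb1, a G protein beta subunit, fell by 1.25 (adjusted p = 0.00848), and Cadm1, a synaptic adhesion molecule, fell by 1.18 (adjusted p = 0.0178). The mitochondrial genes Slc25a3 (phosphate carrier), Brp44 (pyruvate carrier) and Ndufab1 (acyl carrier protein of complex I) fell by 1.36, 1.43 and 1.92. The respiratory chain list, set by symbol patterns that do not take in Ndufab1, had 74 genes tested with a median log2 difference of −0.167 and no call, where 0.890% of all genes were called. Olfm3 fell too, from 52.8, 55.6 and 47.9 CPM to 0, 16.9 and 0 CPM, but on 2 saline UMIs (8.61-fold, 95% interval 2.33 to 71.8). Other large falls were those of Tmem93 (3.22), Phlda1 (3.02), Dut (2.62), Gm13205 and Tmem5 (2.21 each) and Golga7b (2.09) on the log2 scale. The haemoglobin gene Hbb-b1 fell by 2.50 and has near-identical copies, and in cocaine library 9 a single cell held 816 of 830 Hbb-b1 UMIs.

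Fewer genes were higher in adults. Mgat4c (chr10:101144121-101854103), an N-glycan branching enzyme family gene that also marks the cluster, was at 329, 338 and 381 CPM in saline and 152, 173 and 161 CPM at P21, and rose by 1.08 ± 0.19 (log2, SE; adjusted p = 0.0119). Snhg11 (chr2:158201374-158211881), a neuronal long noncoding RNA that overlaps small nucleolar RNA genes on its strand, was at 5131, 5916 and 8017 CPM against 3499, 2521 and 2314 CPM and rose by 1.16 ± 0.21 (adjusted p = 0.0119). The vesicle calcium sensor Syt5 rose by 1.04, the secretory pathway gene Resp18 by 0.95 and Phyhip by 1.81. Ass1, which makes argininosuccinate for arginine synthesis, rose by 1.79, Myl12a by 1.96 and E130309F12Rik by 1.26. Ndrg1 rose by 3.26 from a low level (28.6, 84.4 and 54.4 CPM in saline, 6.33, 7.72 and 2.45 CPM at P21). Abcg2, an efflux transporter of brain endothelium, rose by 2.58, and endothelial markers summed to 0, 203 and 626 CPM in the saline libraries and 28.2 to 74.9 CPM at P21; their part in this result was not tested.

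The other functional lists were small, and with 0.890% of all genes called their calls say little about them. The median log2 difference, beside 0.00797 over all genes, was −0.392 for the 10 immediate early genes tested, −0.351 for 18 axon growth genes, 0.120 for 15 glutamate receptor genes, −0.119 for 6 GABA synthesis and transport genes and −0.0947 for 15 potassium channel genes, with no call in any of them. Of the 13 Sst class genes, 2 were called, again Npy and Tac1, with a median of −0.0927. Microglial markers summed to 98.2 to 222 CPM at P21 and 21.4 to 54.4 CPM in saline libraries, and their part in the calls was not tested. With the 24 P21 and 14 P60 cells that carried at least 10 UMIs of another class's markers left out, 51 genes were called, 6 higher and 45 lower, 37 of them among the 50, and without the cells low in Sst 49 genes were called, 43 of them among the 50. The list depended strongly on single libraries: without saline library 11 (15 d), 4 genes were called, 3 of them among the 50, and without P21 library 1, 182 genes were called.

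The change with age was then set against the same change in all other inhibitory cells of the same libraries, which asks whether Inhib_2 differed from its neighbours. Of 9555 genes tested, 53 (0.555%) had a difference of differences with an adjusted p under 0.05 in edgeR, 24 (0.251%) towards higher and 29 (0.304%) towards lower adult levels in Inhib_2. Ly6c1, Ly6a and Vtn, genes of vascular cells, and Cldn11, Mal, Mog and Apod, genes of oligodendrocytes, were among the 24, all with overlap between the groups. Without cells carrying markers of another class, 47 genes were called, 13 towards higher and 34 towards lower adult levels. In 41 of the 53 the differences within libraries did not overlap between ages, as in 15.7% of all genes tested. Lypd6 was at 386, 532 and 490 CPM in saline and 367, 420 and 418 CPM at P21 in Inhib_2, while in the other inhibitory cells it was at 19.7, 20.4 and 8.64 CPM and 32.7, 52.6 and 55.6 CPM (log2 difference 1.59). As a marker of the cluster Lypd6 is given as a description. Calb1 had lower adult levels in both, with means of 929 and then 567 CPM in Inhib_2, where the change with age was not called. In the others it went from 237, 272 and 299 CPM to 69.0, 42.1 and 45.3 CPM (log2 difference between the changes 1.48 ± 0.21, adjusted p = 5.03e-06). Gad1 was at 493, 489 and 544 CPM in saline and 561, 621 and 502 CPM at P21 in Inhib_2, whereas the others had 1733, 1641 and 1517 CPM and 1274, 1132 and 1077 CPM (−0.74 ± 0.16, adjusted p = 0.00257). The cannabinoid receptor gene Cnr1 was level in Inhib_2 (means 255 and 245 CPM) and lower in adults among the others (1.08 ± 0.20, adjusted p = 0.000404).

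The clusters of the comparison group were not equally frequent at both ages, and their part in these values was not tested. Inhib_1 and Inhib_6 were 3.34% and 4.08% of the other inhibitory cells at P60 and 15.8% and 26.1% at P21, and Inhib_7 was 36.3% and 12.2%. Against the 4 clusters rich in Vip alone (Inhib_4, Inhib_9, Inhib_10 and Inhib_11), where fewer genes passed the filter, 12 of 5667 were called, and 7 were called in both comparisons. Lypd6 then turned to −1.16 and Calb1 to −0.09 (adjusted p = 0.969). Among the 7 were Gabra4, the alpha4 subunit of extrasynaptic GABA-A receptors (−1.90 against all others and −2.46 against the Vip clusters, adjusted p = 0.00864 and 0.0200), and Mef2c, an activity-regulated transcription factor (−0.81 and −1.16, adjusted p = 0.00257 and 7.46e-05). Gabra4 was at 21.4, 16.9 and 68.1 CPM in saline Inhib_2 and 49.6, 88.0 and 68.7 CPM at P21, and the others had 132, 116 and 92.8 CPM and 67.4, 79.7 and 72.7 CPM. Its adjusted p against all others was 0.249 without saline library 11 and 0.119 without saline library 7. The secreted proteins Clu (−0.92 in both), Cst3 (−0.73 and −0.83) and Sparcl1 (−0.77 and −1.10) and the prion protein gene Prnp (−0.66 and −0.77) went the same way. The seventh, Id3, overlapped between ages and is a gene of endothelial cells, whose markers were high in 2 saline libraries. Npy (log2 −2.80, adjusted p = 0.427) and Tac1 (adjusted p = 0.841) did not pass this test, so their fall was not shown to be particular to Inhib_2. Without saline library 11, 12 or 7, 21, 34 or 121 genes were called against all others, and without P21 library 1 there were 87. In that comparison the 6 astrocyte and 5 microglial markers tested all went towards lower adult levels in Inhib_2 (median log2 −1.31 and −1.09). The 4 excitatory neuron markers tested did so too (median log2 −1.55), and 2 of them, Neurod6 and Nrgn, were called. The 5 oligodendrocyte and 4 endothelial markers tested all went towards higher adult levels. The part of such cells in the values of Clu, Cst3 and Sparcl1 was not tested.

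Cocaine was compared with saline over 3 libraries each, with the time point as a covariate. Of 3210 genes tested, 9 (0.280%) were called in edgeR, 8 (0.249%) higher and 1 (0.0312%) lower after cocaine, and 224 had an unadjusted p under 0.05. DESeq2 called 0 genes on the same samples, with 84 at an unadjusted p under 0.05. The groups did not overlap for 3 of the 9, as for 10.3% of all genes tested. Myh8 (chr11:67090626-67122136), the subtype myosin among the cluster's leading genes, was at 136, 152 and 150 CPM in the saline libraries and 12.6, 52.6 and 52.2 CPM in the cocaine libraries (48 h, then both of 15 d), with P21 at 110, 120 and 109 CPM. It fell by 1.87 ± 0.38 (log2, SE; adjusted p = 0.0134), and its adjusted p was 0.0657 to 0.499 without library 7, 8, 9 or 12. Myh8 rested on few cells: 2, 3 and 3 cells of the saline libraries and 0, 2 and 1 of the cocaine libraries had at least 3 UMIs. Its level in cocaine library 8 was under the 18.9 CPM that 3 UMIs would give there. A change in the number of Myh8 cells cannot be told apart from a change within cells. 2310044H10Rik was at 71.5, 59.1 and 122 CPM in saline and 152, 303 and 437 CPM after cocaine, and rose by 1.79 ± 0.31 (adjusted p = 0.00397). Mrfap1 was at 307, 371 and 408 CPM in saline and 448, 744 and 724 CPM after cocaine, and rose by 0.81 ± 0.17 (adjusted p = 0.0279).

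The other 6 called genes overlapped between the groups. They were the clathrin light chain gene Clta (1.69, adjusted p = 0.00100), Slc25a3 (1.09), Ndufab1 (1.32), Itm2b (0.81), the vesicle GTPase gene Rab3a (0.64) and the lipid carrier gene Apoe (2.28), for which a single cell of library 9 held 60 of the library's 92 UMIs. Astrocyte markers, Apoe among them, summed to 638, 760 and 704 CPM in the cocaine libraries and to 64.3, 262 and 422 CPM in saline, and their part in the calls was not tested. Without cocaine library 9, 0 genes were called in edgeR (124 at an unadjusted p under 0.05), without saline library 12 there were 2, without saline library 11 there were 5, and without the libraries of 48 h, saline or cocaine, there were 43 or 41. Sst itself was at 28985, 23778 and 18927 CPM after cocaine, a log2 difference of 0.09 given with no test. The median log2 difference, beside 0.00209 over all genes, was 0.0425 for the 6 neuropeptide genes tested, −0.229 for 10 glutamate receptor genes, −0.305 for 8 GABA receptor genes and −0.845 for 5 immediate early genes. None of them was called, and with 0.280% of all genes called this is no result about the lists.

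**Figure D5:**
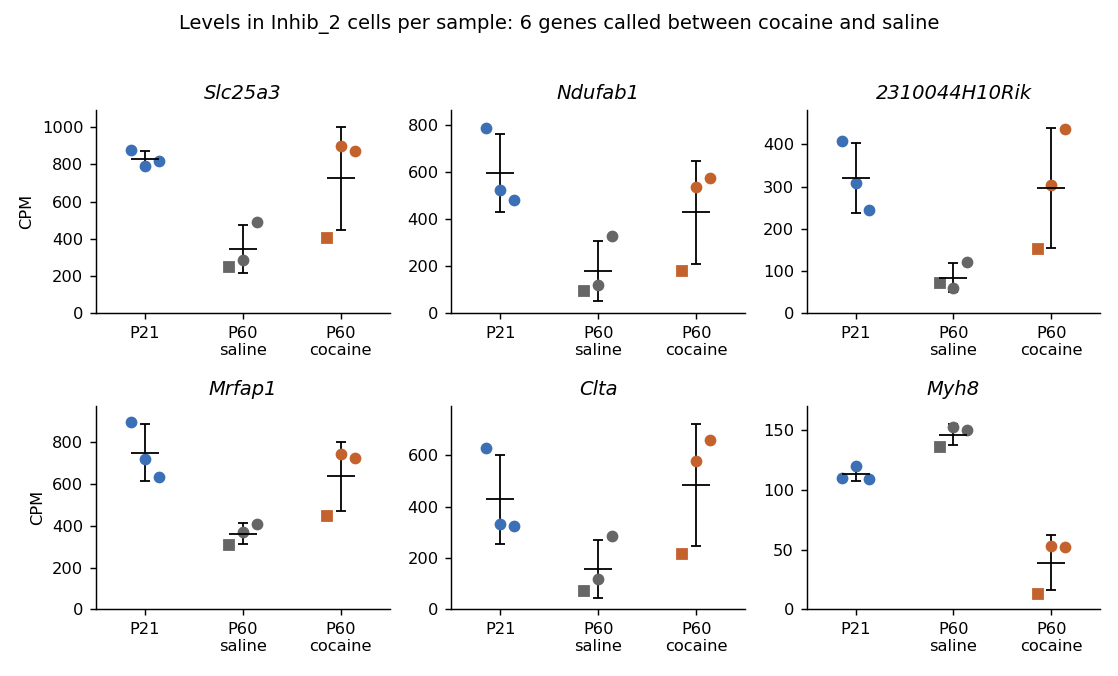
CPM (linear axes) of Slc25a3, Ndufab1, 2310044H10Rik, Mrfap1, Clta and Myh8 in the Inhib_2 cells of each tested library for P21, P60 saline and P60 cocaine; squares are libraries of 48 h, circles are libraries of 15 d or P21, and bars give the mean and SD of 3 libraries. Myh8 lies lower, and 2310044H10Rik and Mrfap1 higher, in all cocaine libraries than in all saline libraries.

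At 15 d alone, with 2 libraries per group, 40 of 3972 genes (1.01%) were called, 28 (0.705%) higher and 12 (0.302%) lower after cocaine, and 38 did not overlap, as 39.0% of tested genes did not. With so few libraries, edgeR's test takes the spread of a gene largely from all genes together. The small p-values below therefore do not measure agreement over many replicates. Among the higher genes, Cox5a, a subunit of cytochrome c oxidase, was at 186 and 354 CPM in saline and 954 and 711 CPM after cocaine (log2 1.72 ± 0.24, adjusted p = 1.72e-09), with 193 CPM in saline and 221 CPM after cocaine at 48 h. The other large rises without overlap were those of Tmem93 (2.49), Mrps26 (2.29), Apoe (2.22), 2310044H10Rik (2.11), Rps19bp1 (1.88), Snf8 (1.80), 5430437P03Rik (1.76), Clta (1.73) and Ndufab1 (1.45). Several of the lower genes were endothelial or glial: Ly6c1 had 82 UMIs in saline and 2 after cocaine, and Ly6a, Itm2a, Id3, Vtn and Mbp were lower as well. Pltp (log2 −4.42), B2m (−2.03), Tmem65 (−1.80) and Lgals1 (−1.44) also fell without overlap. Pltp rested on 22 UMIs in saline and 2 after cocaine (23.0-fold, 95% interval 5.64 to 201). One cell held 23 of the 24 endothelial marker UMIs of saline library 11, and one cell held 44 of 46 in library 12. Without cells carrying markers of another class, 14 genes were called, of which 13 were higher and only 1 was lower after cocaine. Of these 14, 13 were among the 40. With all cells kept, DESeq2 called 8 genes, 5 higher and 3 lower. Cort was at 633 and 259 CPM in saline and 60.6 and 78.2 CPM after cocaine (−2.75 ± 0.32, adjusted p = 7.73e-14), but without the cells carrying other markers the difference was −1.32 (adjusted p = 0.904). Its UMIs lay in few cells: in saline library 11 a single cell held 30 of 75 and in saline library 12 a single cell held all 19. Rbp4 was at 405 and 612 CPM in saline and 998 and 1434 CPM after cocaine (1.30 ± 0.21, adjusted p = 3.47e-07), while at 48 h it was at 579 CPM in saline and 341 CPM after cocaine. The age and cocaine comparisons share their saline libraries. Called both with age and with cocaine over both time points were 2310044H10Rik, Mrfap1, Ndufab1 and Slc25a3, and called with age and with cocaine at 15 d were 10 genes, these 4 and Atxn7l3b, Cadm1, Mrps26, Nrsn1, Rbp4 and Tmem93. In each of them saline was the lower group in both comparisons.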

How the data were processed

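Per the labels and the study's methods, the authors aligned droplet reads to mm9 (NCBIM37) with Cell Ranger (the labels print version 13.1) and deposited UMI counts per gene and cell. With Seurat 2.1.0 they left out cells with few genes, cells rich in mitochondrial reads and the cells with the most genes as potential doublets, and named P21 cells by correlation with P60 clusters. No doublet caller was run here. The deposited annotation also gives UMI and gene counts per cell and the mitochondrial share as a fraction. Inhib_2 cells were taken from it, and the members and the gene lists were chosen with earlier results of these data known.

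Counts of 25990 genes (13 mitochondrial and 142 ribosomal protein genes left out) were summed per library with at least 10 Inhib_2 cells (73473 to 947821 UMIs a sample). edgeR 4.0.16 (R 4.3.3; TMM, filterByExpr, robust quasi-likelihood test, Benjamini-Hochberg) fitted all tested genes. DESeq2 1.42.0, other scalings, filters, cell choices and left-out libraries were alternatives. Pooling thin libraries within a group added no sample. On simulated data, 29.5% (age, 5617 genes), 37.5% (cocaine, 3210 genes) and 13.5% (difference between cell groups, 9555 genes) of 200 genes changed by 1 on the log2 scale were recovered. In the same order, 8, 5 and 6 unchanged genes were called falsely. Shares were compared by exact permutation (scipy 1.17.1), with exact Clopper-Pearson 95% intervals for single libraries.

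The text names Sst, Lypd6 and Reln, members of the lists, the 15 genes with the highest P60 ratio to the other clusters (at least 50 UMIs), the 10 highest ratios each way against Inhib_1, and among called genes without overlap the 10 largest rises and falls. Genes outside this rule (Atxn7l3b, Nrsn1, Brp44, Dpysl2, Gnb1, Cadm1, Slc25a3, Ndufab1, Mef2c, Clu, Cst3, Sparcl1 and Prnp; Ly6c1, Ly6a, Vtn, Id3, Cldn11, Mal, Mog and Apod between cell groups; the genes that overlapped in the cocaine comparisons; Rbp4, Mrfap1, Mrps26, 2310044H10Rik and Snupn where not among the leaders) were chosen after their values were seen. Positions were found for 514 of 517 genes looked up, and 18 of 153 named genes overlap another gene on their strand.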

Additional observations from a re-analysis of the deposited data

Results flagged for a closer look

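In 53 genes the change between P21 and adult saline mice differed between Inhib_2 and the other inhibitory cells (adjusted p under 0.05, edgeR). Values below are the log2 change in Inhib_2 minus that in the other inhibitory cells, for the 10 largest differences each way without overlap. Towards higher adult levels in Inhib_2 were Ndrg1 (2.78), the transcription factor gene Lhx6 (1.86), Lypd6b (1.85), Lypd6 (1.59), the Kv3.2 potassium channel gene Kcnc2 (1.52), Calb1 (1.48), the heparan sulfate proteoglycan gene Sdc3 (1.41), Mgat4c (1.38), Cnr1 (1.08) and the fucosyltransferase gene Fut9 (1.02). The part of oligodendrocyte RNA in the value of Ndrg1 was not tested. As a marker that helped to choose the cells, Lypd6 is given as a description only. The directions of Lypd6 and Calb1 turned in the comparison with the Vip clusters alone. Lhx6 was at 157, 194 and 40.8 CPM in saline and 99.2, 116 and 114 CPM at P21 in Inhib_2, and at 23.4, 24.3 and 2.16 CPM and 40.4, 58.7 and 65.8 CPM in the others. Against the Vip clusters alone its difference was 0.25 (adjusted p = 1.00).

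Towards lower adult levels were Neurod6 (−3.50), Hba-a1 (−3.50), Fam46a (−2.95), Crym (−2.92), the excitatory neuron gene Nrgn (−2.13), the nociceptin precursor gene Pnoc (−2.11), the endocannabinoid hydrolase gene Abhd6 (−2.01), the transcription cofactor gene Lmo4 (−1.97) and Gabra4 (−1.90). Neurod6 and Nrgn are on the list of excitatory neuron markers, and the part of such cells in their values was not tested. Neurod6, Hba-a1, Fam46a and Crym had 2 or 3 UMIs in the Inhib_2 cells of the saline libraries. Within Inhib_2, the 95% interval of the fall included 1 for Neurod6 (1.86-fold, 0.467 to 16.1) and Crym (2.16-fold, 0.694 to 10.8). It lay above 1 for Hba-a1 (10.2-fold, 2.77 to 84.9) and Fam46a (5.00-fold, 1.67 to 24.6). Snupn had 0 UMIs in the Inhib_2 cells of the saline libraries and 27.1 CPM at P21, and was at least 2.99-fold lower. Pnoc was at 14.3, 59.1 and 27.2 CPM in saline and 55.9, 83.4 and 71.2 CPM at P21 in Inhib_2, and at 624, 839 and 697 CPM and 490, 357 and 267 CPM in the others; without cells low in Sst its adjusted p was 0.518. No library's share stood apart from the others of the saline or the cocaine group over the 6 sets of shares checked.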

How the results depend on the processing

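The share of Inhib_2 at P21 exceeded that in saline libraries by 26.1 to 29.2 points with single libraries left out, and the cocaine difference ranged from 0.583 to 4.09 points without passing the test. For age, 50 genes became 123 with all 6 adult samples (56 higher, 67 lower, and 17 of the 46 still tested called again), 34 with P21 libraries 2 and 3 taken as 1 (3 higher, 31 lower), 19 with equal numbers of cells per library, 82 with a minimum of 5 cells, 253 without a filter on low counts, and 4 to 182 with single libraries left out (27 without saline library 7 or P21 library 3, 30 without saline library 12). For cocaine, 9 became 0 with DESeq2, 30 with a minimum of 5 cells, 47 without the filter, and 0 to 43 with single libraries left out. At 15 d, 40 became 8 with DESeq2, 14 without cells carrying markers of another class, and 17 to 66 with single libraries left out (17 without cocaine library 9, 26 without cocaine library 10, 66 without saline library 12). For the difference between cell groups, 53 became 12 against the Vip clusters and 21 to 121 with single libraries left out (21, 34 and 121 without saline libraries 11, 12 and 7, and 87 without P21 library 1). Directions turned for Hbb-b1 with age (1.41 with all adult samples, 4.22 with a minimum of 5 cells) and, in the difference between cell groups, for Hba-a1 (1.87 and 2.85), Lypd6 (−1.16) and Calb1 (−0.09, both against the Vip clusters). The cause of these shifts was not tested. Over the named genes and alternatives, 190 values kept their call and 98 kept only their direction with age; these numbers were 30 and 15 for cocaine, 113 and 58 at 15 d, and 184 and 69 between cell groups. The alternatives without cells low in Sst and against the Vip clusters were chosen after seeing the data. Also not planned in advance were those without cells carrying markers of another class, all alternatives at 15 d and the share counted by Sst level. Depth limits the adult side: 10 to 27 cells a sample leave genes of few UMIs untested. The difference between cell groups was fitted with the library as a block. No paired analysis was possible between ages or treatments because the replicate numbers of the labels run on through the adult groups, so that those groups share no numbers, and the P21 numbers are a count of their own.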

Other observations

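The 18 Inhib_2 cells of the 5 small adult libraries entered none of the main tests across genes and were pooled here (149908 UMIs). Sst was at 16377 CPM, Lypd6 at 500 CPM and Reln at 327 CPM. Cartpt was at 360 CPM and Npy at 314 CPM, and Tac1 had 0 UMIs. Some further genes were higher in Inhib_2 than in the mean of the other clusters. The beta4 subunit gene of the BK potassium channel, Kcnmb4, was at 113 CPM at P60 against 22.2 CPM in the mean of the other clusters (109 against 27.7 CPM at P21), and the somatostatin receptor gene Sstr1 was at 32.7 against 9.05 CPM (44.4 against 11.2 CPM at P21), the highest of the 12 clusters at both ages. Rgs9, a regulator of G protein signalling, was at 41.3 against 7.92 CPM (41.9 against 5.81 CPM at P21). These levels are descriptions with no test.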
